A study of Homo sapiens with 6 samples.

Results

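Collagens form the fibrils, networks and filaments of the extracellular matrix, lysyl oxidases cross-link them, and lumican is a small leucine-rich proteoglycan that sits on collagen fibrils. Expression of these genes was followed by poly(A) RNA sequencing in 22RV1, a long-established line of human prostate cancer. The members were the genes of the deposited table whose Ensembl identifier belongs to a protein-coding gene with a collagen chain symbol, to a lysyl oxidase symbol (LOX, LOXL1, LOXL2, LOXL3 or LOXL4) or to LUM. This gave 37 of the 17811 listed genes, of which 32 were collagen chains, 4 were lysyl oxidases and 1 was LUM. A further 13 genes of GENCODE release 29 that fit the same names, among them COL1A2, COL4A1, COL6A3, COL11A1 and LOXL4, were not analysed here.

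The 3 groups had 2 libraries each and came from 22RV1 cells that stably carried a short hairpin RNA, all grown in RPMI-1640 medium with serum. The hairpin was aimed at IMPA1 (shIMPA1), which encodes an inositol monophosphatase, at IMPDH2 (shIMPDH2), whose enzyme controls the rate of guanine nucleotide production, or at luciferase (shLuc), the control. The labels name the cells by hairpin target alone and state neither a hairpin sequence nor how many hairpins were used per target. What a line or hairpin does beyond its target therefore cannot be told apart from the knockdown. The labels also do not state whether a pair of libraries represents separate cultures. The p-values therefore measure the spread between libraries, which may be technical.

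Fibrillar collagens assemble into the cross-banded fibres that carry load, and fibril-associated collagens decorate the surface of those fibres. Type IV collagen makes the network of basement membranes, which underlie the prostate epithelium, and type VI makes beaded filaments between matrix and cells. In most tissues fibroblasts are the main source of fibrillar collagens and lumican, whereas epithelial cells contribute chains of the basement membrane.

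Total recovered reads per library ranged from 20828900 to 27773294. IMPA1 stood at 957 and 1101 normalized reads in shIMPA1 against 1621 and 1331 in shLuc, and IMPDH2 at 2932 and 3166 in shIMPDH2 against 4270 and 5032 in shLuc. Both targets passed the test (log2 fold changes -0.52 and -0.61, limma adjusted p = 0.0145 and 0.00999). Neither target passed in the fit without a trend (limma adjusted p = 0.0671 for IMPA1 and 0.0612 for IMPDH2). With 1 library left out, the group that kept 1 library gave no estimate of spread. The p-values of such fits, here and below, do not measure the spread of that group. With shLuc replicate 1 left out IMPA1 stood at -0.37 and did not pass (limma adjusted p = 0.159). IMPDH2 did not pass at -0.49 with shLuc replicate 2 left out (limma adjusted p = 0.127), nor at -0.55 and -0.66 with one or the other shIMPDH2 library left out (0.115 and 0.0787). The summed level of 9 luminal prostate markers, all 9 of them listed, was 94539 to 100087 in shIMPA1, 92577 to 97276 in shIMPDH2 and 121892 to 123379 in shLuc. Of 9 fibroblast markers, 3 were listed, and COL1A1 and LUM are themselves members. Decorin (DCN), the remaining gene, had 8.63 to 8.98 normalized reads in shIMPA1, 5.78 to 7.87 in shIMPDH2 and 8.75 to 9.90 in shLuc, below the detection filter in every library. Of 5 smooth muscle and myofibroblast markers, 3 were listed, with sums of 219 to 251 in shIMPA1, 224 to 225 in shIMPDH2 and 187 to 234 in shLuc, and none of 4 endothelial markers was listed. The part of other cell types in the results was not tested.

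More members were called lower than higher in all 3 comparisons. A gene was called where the Benjamini-Hochberg adjusted p of a limma fit over all genes was under 0.05. In shIMPA1 against shLuc, 6 of the 37 members were higher and 10 lower, at a background of 30.2% of all genes called (14% higher and 16.2% lower). In shIMPDH2 against shLuc, 1 member was higher and 16 were lower, at a background of 17% called (7.86% higher and 9.15% lower). In shIMPDH2 against shIMPA1, 2 members were higher and 14 lower, at a background of 26.1% called (13.5% higher and 12.6% lower). These counts include COL26A1, which passed the filter on low values through shIMPA1 alone. Over the other 36 members, 5 were higher in shIMPA1 against shLuc and 13 were lower in shIMPDH2 against shIMPA1.

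The median log2 fold change over the members was -0.27 in shIMPA1 against shLuc, -0.79 in shIMPDH2 against shLuc and -0.36 in shIMPDH2 against shIMPA1. Over all genes tested the medians were 0.02, -0.01 and -0.00 in the same order. The 2 comparisons with shLuc share its libraries, so their values are given side by side and were not correlated. In bulk RNA, fewer cells of a type and less RNA per cell cannot be told apart. With 1 library left out at a time, the median over the members ranged from -0.45 to -0.16 in shIMPA1 against shLuc. It ranged from -0.85 to -0.62 in shIMPDH2 against shLuc and from -0.44 to -0.18 in shIMPDH2 against shIMPA1. The number of members called changed with the library left out, as did the number over all genes. Both are given side by side at the end.

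**Figure D1:**
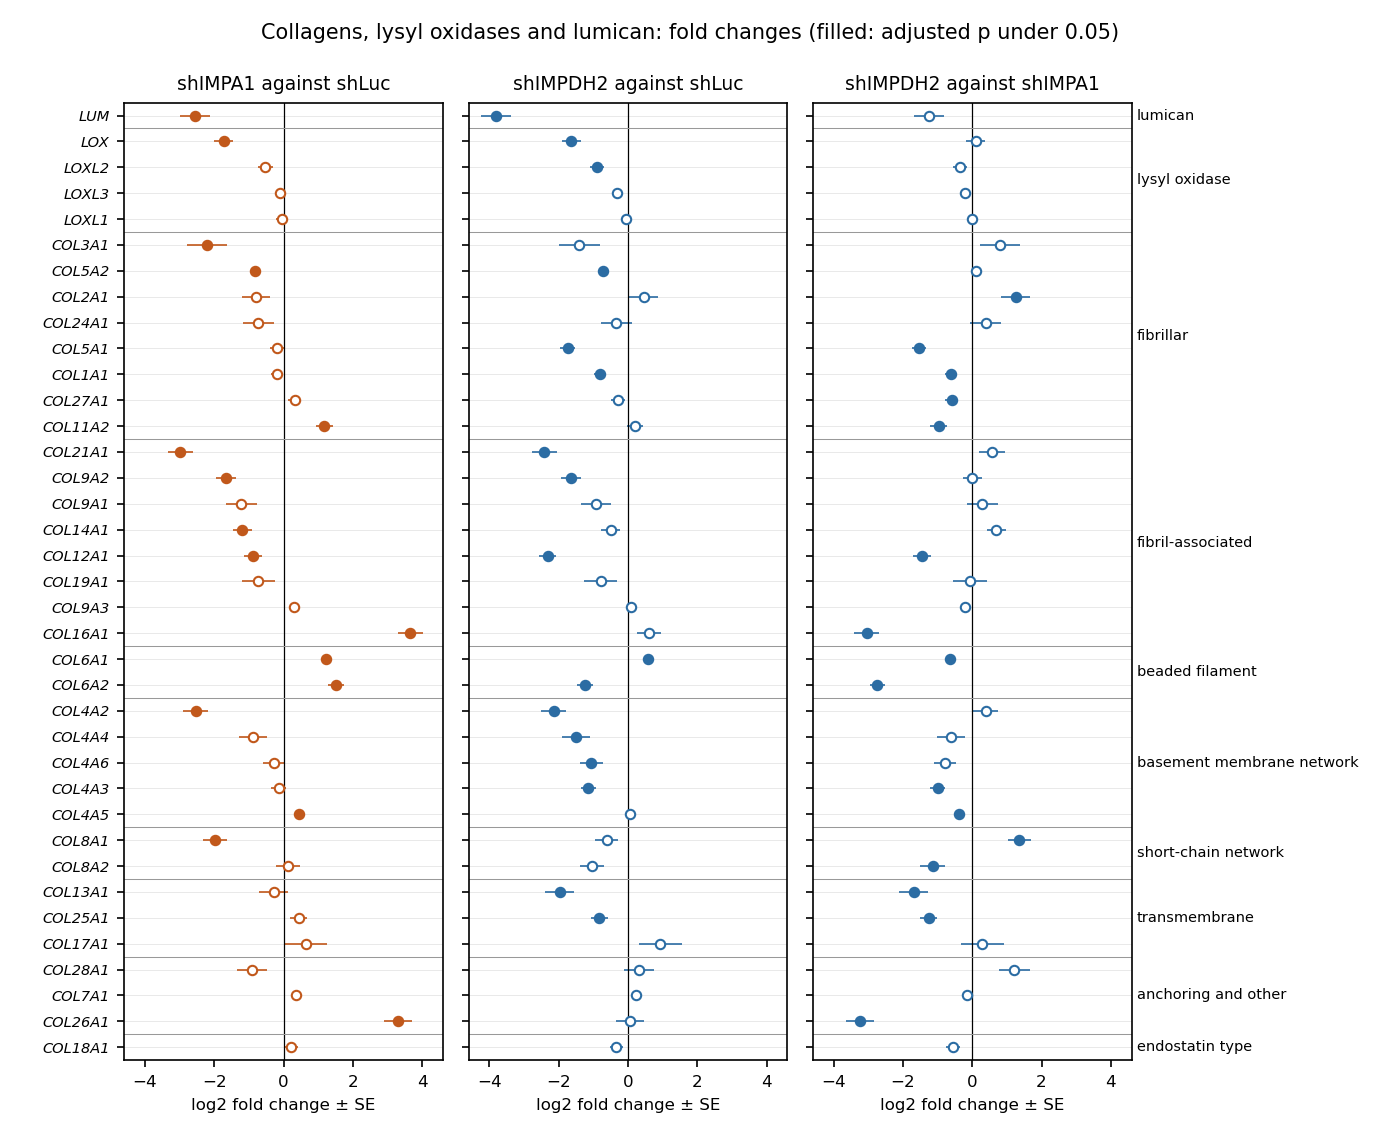
Log2 fold change with its standard error (x axis, log2(value + 1) scale) of each of the 37 members, grouped by role, in the 3 comparisons. Filled points have a limma adjusted p under 0.05; LUM lies furthest left in the middle panel at -3.80, and COL16A1 furthest right in the left panel at 3.66.

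Set against exon length, most members were expressed at a low level in these epithelial cells. The median over all listed genes was 83.1 normalized reads per kb of exon, and 5 members lay above it. They were COL6A1 (263 per kb, mean of the 6 libraries), the type IX chain COL9A3 (253), the anchoring fibril collagen COL7A1 (140.4), LOXL3 (95.6) and the type V chain COL5A2 (91.9). LOX averaged 33.4 per kb, COL1A1 27.6 and LUM 24.0, and the lowest members were the type III chain COL3A1 at 1.71 and the type IV chain COL4A2 at 1.25. Summed over the 32 collagen chains, the normalized reads were 10899 and 9259 in shIMPA1, 7777 and 7466 in shIMPDH2, and 8713 and 8213 in shLuc. All 37 members passed the filter of 10 normalized reads in 2 libraries, and COL26A1 passed it through shIMPA1 alone.

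**Figure D2:**
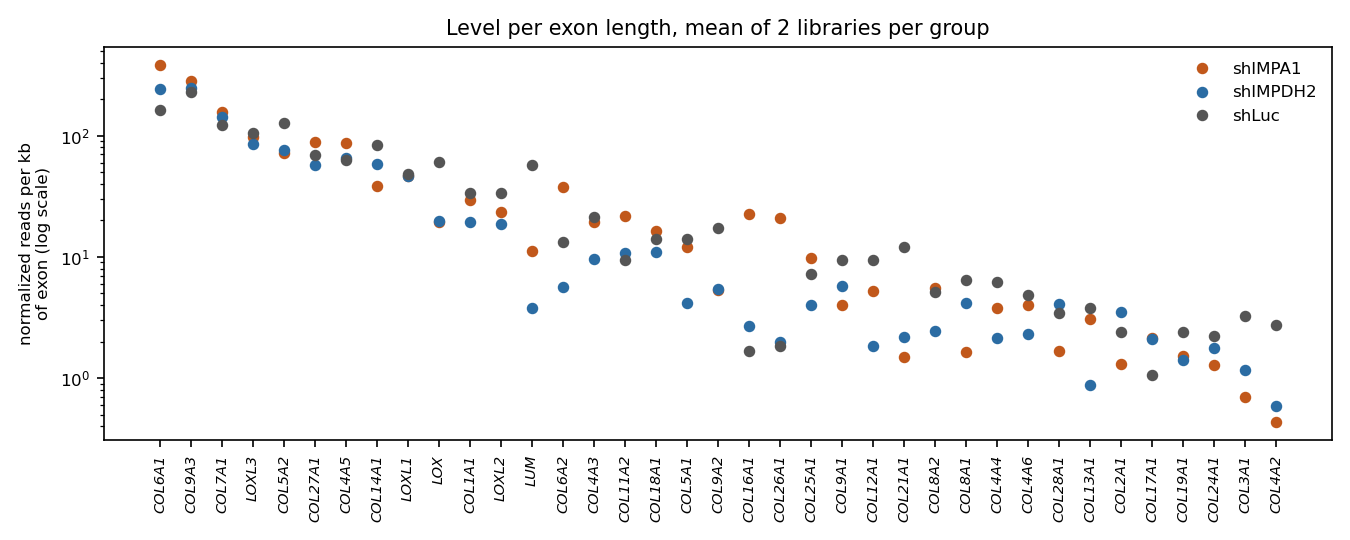
Mean level per group in normalized reads per kb of exon (y axis, log scale) for the 37 members, ordered by their mean over all 6 libraries. LUM, LOX, COL16A1, COL26A1 and COL21A1 are among those whose groups stand apart, while the points of LOXL1 lie on each other.

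Lumican (LUM, ENSG00000139329, GRCh38 chromosome 12, 91102629 to 91111831) binds collagen fibrils through its leucine-rich repeats and regulates their diameter and spacing. It was measured at 51.2 and 15.5 normalized reads in shIMPA1, 11.6 and 11.2 in shIMPDH2, and 187 and 157 in shLuc. Both shLuc libraries lay above all 4 knockdown libraries, and the shIMPA1 libraries differed from each other more than those of the other groups did. LUM fell 13.9-fold in shIMPDH2 against shLuc (log2 change -3.80, SE 0.44, limma adjusted p = 0.000259) and 5.87-fold in shIMPA1 against shLuc (-2.55, SE 0.44, limma adjusted p = 0.00162). Both calls held without any 1 library. The fall in shIMPA1 was -3.38 without shIMPA1 replicate 1 and -1.72 without shIMPA1 replicate 2. Between the knockdowns the difference was -1.24 (SE 0.44, limma adjusted p = 0.0568), not past the threshold, although shIMPDH2 lay below shIMPA1 in each library. Without shIMPA1 replicate 2 it was -2.07 and without shIMPA1 replicate 1 it was -0.41. DESeq2 on the recovered reads of all 6 libraries gave an adjusted p of 0.0215.

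The genes whose profile over the 6 libraries was most like that of LUM, among genes with a mean of at least 100 normalized reads, had Pearson correlations of 0.993 to 0.998 on the log2 scale. The points share 3 groups of 2 libraries, and the correlations are given as a description. They were FMNL2 (0.998), a formin that acts on actin, the zinc finger gene ZNF829 (0.996), AC024940.1 (0.995), FAM171A2 (0.994) and SUZ12P1 (0.993), a pseudogene whose reads may be shared with its parent gene. FMNL2 had 207 and 148 normalized reads in shIMPA1, 139.8 and 132 in shIMPDH2, and 321 and 316 in shLuc. The order of its groups was that of LUM, over a narrower range. Other small leucine-rich proteoglycans were close to the detection limit. Of 11 on the list, DCN and biglycan (BGN) were listed. BGN, tested alone, had 14.4 and 6.90 in shIMPA1, 4.62 and 9.0 in shIMPDH2, and 17.1 and 25.4 in shLuc, with log2 fold changes of -0.99 in shIMPA1 (limma adjusted p = 0.155) and -1.54 in shIMPDH2 (limma adjusted p = 0.0537) against shLuc.

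Of the 4 lysyl oxidases, LOX was called lower in both knockdowns against shLuc and LOXL2 in shIMPDH2. LOX (ENSG00000113083, GRCh38 chromosome 5, 122063195 to 122078360) encodes the secreted copper enzyme that oxidises lysines of collagen and elastin, the first step of their cross-linking. It had 142 and 72.5 normalized reads in shIMPA1, 120.1 and 97.8 in shIMPDH2, and 336 and 342 in shLuc. The shLuc libraries agree closely and lie above all others, while the libraries of the knockdowns overlap each other. LOX fell 3.32-fold in shIMPA1 (log2 change -1.73, SE 0.27, limma adjusted p = 0.000926) and 3.11-fold in shIMPDH2 (-1.64, SE 0.27, limma adjusted p = 0.00219), each against shLuc and each held without any 1 library. The fall in shIMPA1 was -2.21 without shIMPA1 replicate 1 and -1.25 without shIMPA1 replicate 2. Between shIMPDH2 and shIMPA1 LOX differed by 0.10 (SE 0.27, limma adjusted p = 0.825), and by 0.57 without shIMPA1 replicate 1. Exons of LOX overlap those of SRFBP1 on the other strand over 138 bases.

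The sequence upstream of LOX is shown because LOX was called lower in both knockdowns. It is the part of the RefSeq window before the start of transcription that no GENCODE exon covers, read 5′ to 3′ on the minus strand (GRCh38.p14, chr5:122078361-122078509), and capitals mark a CCAAT box.
LOX upstream: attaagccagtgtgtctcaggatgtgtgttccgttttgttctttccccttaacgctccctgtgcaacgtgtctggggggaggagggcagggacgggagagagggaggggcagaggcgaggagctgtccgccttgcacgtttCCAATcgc

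LOXL2, which cross-links type IV collagen, had 135 and 133 normalized reads in shIMPA1, 125 and 86.6 in shIMPDH2, and 180.0 and 207 in shLuc. All 4 knockdown libraries lay below both shLuc libraries. It fell 1.85-fold in shIMPDH2 against shLuc (log2 change -0.88, SE 0.21, limma adjusted p = 0.0142), and was -0.52 in shIMPA1 against shLuc (SE 0.21, limma adjusted p = 0.0762). The shIMPDH2 call did not hold without shLuc replicate 1 (-0.98, limma adjusted p = 0.0902), shLuc replicate 2 (-0.79, 0.153) or shIMPDH2 replicate 2 (-0.62, 0.166). The shIMPA1 difference was -0.53 without shIMPA1 replicate 1 and -0.51 without shIMPA1 replicate 2.

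LOXL1, which acts in elastic fibre assembly, had 162 and 175 normalized reads in shIMPA1, 166 and 172 in shIMPDH2, and 170.1 and 179 in shLuc. The groups overlap in every pairing, with log2 fold changes of -0.05 in shIMPA1 (SE 0.16, limma adjusted p = 0.842) and -0.05 in shIMPDH2 (SE 0.16, limma adjusted p = 0.874) against shLuc. LOXL3 had 451 and 401 in shIMPA1, 349 and 389 in shIMPDH2, and 472 and 440.2 in shLuc. Its log2 fold change was -0.10 in shIMPA1 (limma adjusted p = 0.632) and -0.31 in shIMPDH2 (limma adjusted p = 0.159) against shLuc, and the shIMPDH2 difference passed without either shIMPA1 library (-0.31, limma adjusted p = 0.0376 without replicate 1 and 0.0369 without replicate 2). Exons of LOXL3 share 841 bases with HTRA2 and DOK1 on the other strand, and those of LOXL1 share 335 bases with its antisense gene LOXL1-AS1. Those of LOXL2 share 298 bases in all with AC090197.1 on the other strand and ENTPD4 on the same strand.

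**Figure D3:**
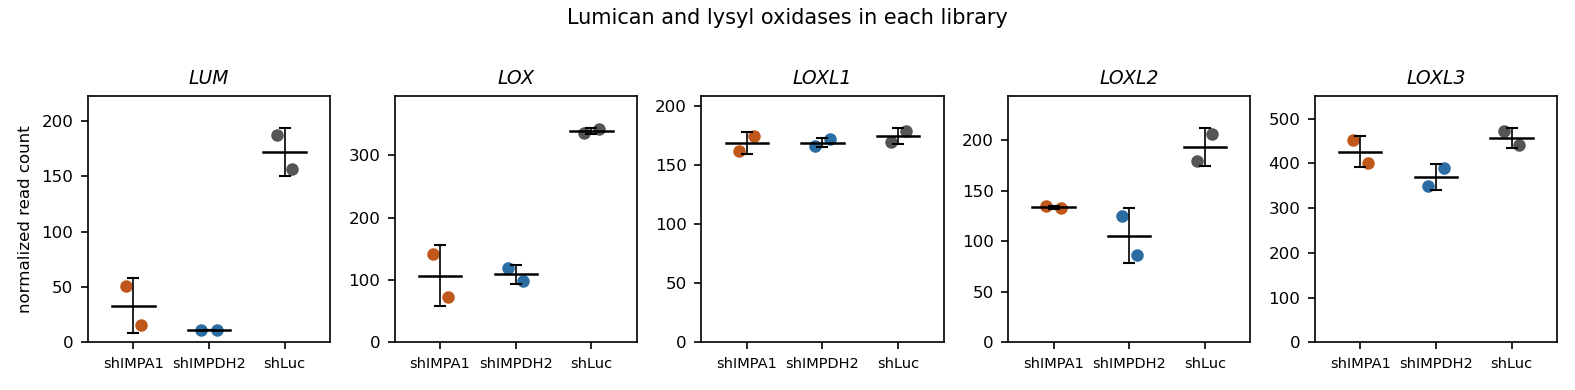
Normalized read counts (y axis, from 0) of LUM and the 4 lysyl oxidases in each library (points), with group mean and SD (bars, 2 libraries per group). In LUM and LOX all knockdown libraries lie below both shLuc libraries, whereas the groups of LOXL1 overlap.

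Fibrillar collagens divided by chain. Of 8 tested, 1 was called higher and 2 lower in shIMPA1 against shLuc, where 30.2% of all genes were called. In shIMPDH2 3 were lower against shLuc (17% of all genes called), and between shIMPDH2 and shIMPA1 1 was higher and 4 lower (26.1% called). Type V collagen, which sits inside type I fibrils and limits their diameter, was called lower in at least 1 chain in each knockdown. COL5A1 (ENSG00000130635, GRCh38 chromosome 9, 134641774 to 134844843) had 124 and 148 normalized reads in shIMPA1, 50.8 and 41.6 in shIMPDH2, and 167 and 146 in shLuc. The shIMPDH2 libraries stand below all others, and shIMPA1 overlaps shLuc. COL5A1 fell 3.34-fold in shIMPDH2 against shLuc (log2 change -1.74, SE 0.21, limma adjusted p = 0.000314) and 2.91-fold in shIMPDH2 against shIMPA1 (-1.54, SE 0.21, limma adjusted p = 0.000444), and both calls held without any 1 library. In shIMPA1 against shLuc it was -0.20 (SE 0.21, limma adjusted p = 0.496).

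COL5A2 (ENSG00000204262, GRCh38 chromosome 2, 189031896 to 189225312), the partner chain, had 506 and 559.9 normalized reads in shIMPA1, 618 and 526 in shIMPDH2, and 996 and 903 in shLuc. Here all 4 knockdown libraries lie below shLuc and overlap each other. It fell 1.78-fold in shIMPA1 (log2 change -0.83, SE 0.14, limma adjusted p = 0.00128) and 1.66-fold in shIMPDH2 (-0.73, SE 0.14, limma adjusted p = 0.00458) against shLuc. The shIMPDH2 call did not hold without shLuc replicate 1 (-0.66, limma adjusted p = 0.0842) or shIMPDH2 replicate 2 (-0.62, 0.0900). Between shIMPDH2 and shIMPA1 COL5A2 differed by 0.10 (limma adjusted p = 0.629), and whether the 2 chains differed in this contrast was not tested.

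COL1A1, the main chain of type I collagen, had 333 and 250.2 normalized reads in shIMPA1, 195 and 184 in shIMPDH2, and 299.7 and 364 in shLuc. The shIMPDH2 libraries lie below all others. COL1A1 fell 1.74-fold in shIMPDH2 against shLuc (log2 change -0.80, SE 0.18, limma adjusted p = 0.0120) and 1.52-fold against shIMPA1 (-0.60, limma adjusted p = 0.0293). The call against shLuc was lost on leaving out shLuc replicate 1 (-0.94, limma adjusted p = 0.0595), shLuc replicate 2 (-0.66, 0.151), shIMPDH2 replicate 1 (-0.84, 0.0812) or shIMPDH2 replicate 2 (-0.76, 0.120). The call against shIMPA1 was lost on leaving out shLuc replicate 1 or 2 (-0.60, limma adjusted p = 0.0550 and 0.0560) and without shIMPDH2 replicate 1 (-0.64, 0.118) or 2 (-0.56, 0.180).

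COL11A2, a chain of the cartilage collagen type XI, was called higher in shIMPA1. It had 118 and 174 normalized reads in shIMPA1, 73.9 and 72.0 in shIMPDH2, and 72.0 and 55.1 in shLuc. Both shIMPA1 libraries lie above the other 4. COL11A2 rose 2.26-fold in shIMPA1 against shLuc (log2 change 1.18, SE 0.24, limma adjusted p = 0.00426) and was 1.96-fold lower in shIMPDH2 than in shIMPA1 (-0.97, limma adjusted p = 0.0134). The rise lost its call without shLuc replicate 2 (0.99, limma adjusted p = 0.0667), and the difference between the knockdowns without shIMPDH2 replicate 1 (-0.99, 0.0800) or 2 (-0.95, 0.0999).

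COL27A1, a fibrillar collagen of developing cartilage, had 1537 and 941 normalized reads in shIMPA1, 874 and 727 in shIMPDH2, and 993 and 939.8 in shLuc. Its single call was in shIMPDH2 against shIMPA1 (log2 change -0.59, SE 0.20, limma adjusted p = 0.0472). That call was lost without shIMPA1 replicate 1 (-0.24, limma adjusted p = 0.145), the highest library, and without either shLuc library or either shIMPDH2 library (-0.46 to -0.73, 0.0938 to 0.302).

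Among the low-count fibrillar chains, COL3A1, the type III chain of reticular fibres, fell in shIMPA1 against shLuc (log2 change -2.21, SE 0.58, limma adjusted p = 0.0156). The call did not hold without shLuc replicate 1 (-2.41, limma adjusted p = 0.0808) or 2 (-2.01, 0.135), and the value was -3.04 or -1.39 without one or the other shIMPA1 library. COL2A1, the cartilage type II chain, was higher in shIMPDH2 than in shIMPA1 (1.25, SE 0.41, limma adjusted p = 0.0459), a call that was lost without either shIMPDH2 library (0.78 without replicate 1 and 1.72 without replicate 2, limma adjusted p = 0.319 and 0.0511) or either shLuc library (0.0844 and 0.0872). By DESeq2 on recovered reads the COL2A1 difference between the knockdowns had an adjusted p of 0.118. COL24A1 was called in none of the comparisons.

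**Figure D4:**
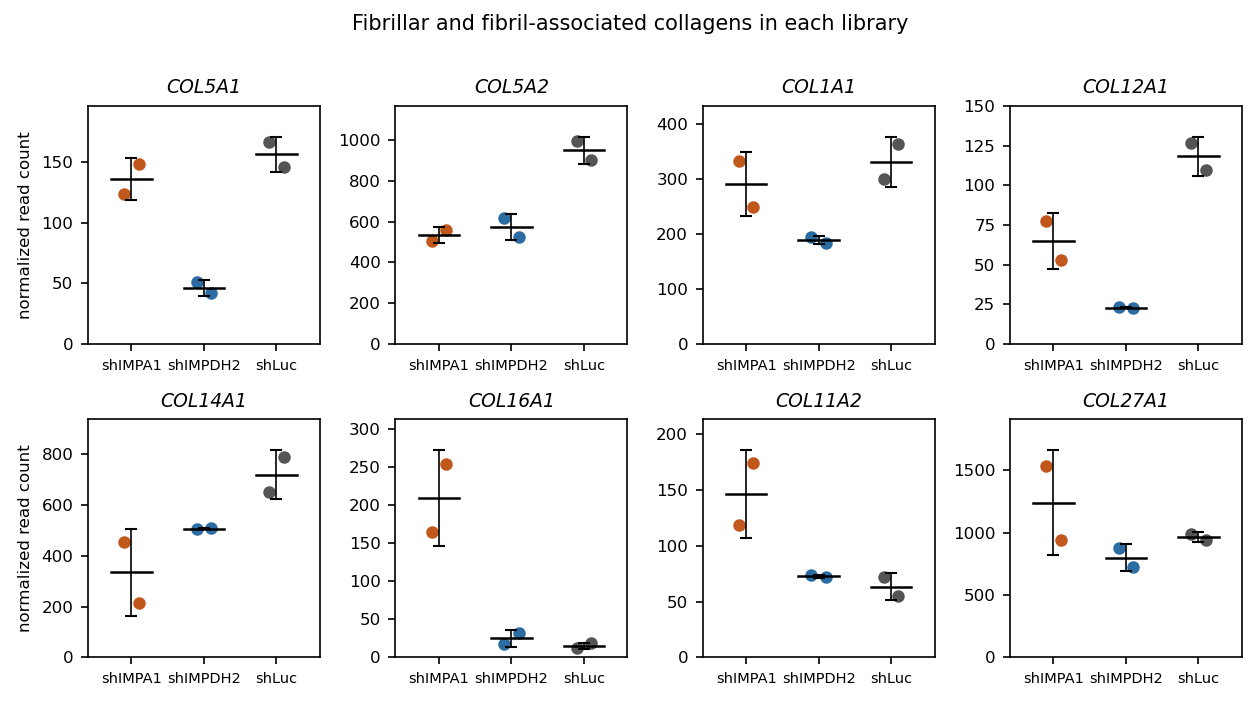
Normalized read counts (y axis, from 0) of 5 fibrillar and 3 fibril-associated collagen genes in each library (points), with group mean and SD (bars, 2 libraries per group). COL5A1 and COL12A1 are lowest in shIMPDH2, COL16A1 and COL11A2 are highest in shIMPA1, and COL5A2 is highest in shLuc.

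Of the 8 fibril-associated chains, which carry interrupted triple helices and bind the surface of fibrils, 1 was higher and 4 were lower in shIMPA1, and 3 were lower in shIMPDH2, each against shLuc. Of all genes 30.2% were called in shIMPA1 and 17% in shIMPDH2. COL12A1 (ENSG00000111799, GRCh38 chromosome 6, 75084326 to 75206051), the type XII chain of tendon, fascia and stroma, was stepped. It had 77.2 and 52.6 normalized reads in shIMPA1, 23.1 and 22.5 in shIMPDH2, and 127 and 109 in shLuc. No group overlaps another. COL12A1 fell 4.99-fold in shIMPDH2 against shLuc (log2 change -2.32, SE 0.25, limma adjusted p = 0.000198), fell 1.83-fold in shIMPA1 against shLuc (-0.88, SE 0.25, limma adjusted p = 0.0243), and was 2.72-fold lower in shIMPDH2 than in shIMPA1 (-1.44, SE 0.25, limma adjusted p = 0.00238). The shIMPA1 call did not hold without shLuc replicate 1 (-0.77, limma adjusted p = 0.186), shLuc replicate 2 (-0.98, 0.103) or shIMPA1 replicate 2 (-0.60, 0.0906), whereas those of shIMPDH2 held without any 1 library.

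The window upstream of COL12A1 is shown because COL12A1 was called in all 3 comparisons. It lies on the minus strand (GRCh38.p14, chr6:75206054-75206303) and is read 5′ to 3′, with a GC box and a TEAD motif in capitals, both described further on.
COL12A1 upstream: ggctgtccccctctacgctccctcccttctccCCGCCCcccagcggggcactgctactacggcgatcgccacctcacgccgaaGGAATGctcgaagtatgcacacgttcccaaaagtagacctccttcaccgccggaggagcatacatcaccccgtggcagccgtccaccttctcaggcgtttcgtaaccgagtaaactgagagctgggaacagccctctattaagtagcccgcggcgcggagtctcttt

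COL16A1 (ENSG00000084636, GRCh38 chromosome 1, 31652247 to 31704319), the type XVI chain, showed the largest positive fold change among the members. It had 164 and 254 normalized reads in shIMPA1, 17.3 and 32.6 in shIMPDH2, and 12.6 and 18.4 in shLuc. The shIMPA1 libraries stand far above the other 4, and shIMPDH2 overlaps shLuc. COL16A1 rose 12.6-fold in shIMPA1 against shLuc (log2 change 3.66, SE 0.35, limma adjusted p = 4.53e-05), and shIMPDH2 was 8.26-fold lower than shIMPA1 (-3.05, SE 0.35, limma adjusted p = 0.000177), with both calls held without any 1 library. It was 0.61 in shIMPDH2 against shLuc (SE 0.35, limma adjusted p = 0.259). An antisense gene, AC114488.2, overlaps its exons over 117 bases.

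COL14A1, the type XIV chain of mature fibres, had 456 and 215 normalized reads in shIMPA1, 506 and 508 in shIMPDH2, and 652 and 788 in shLuc. All knockdown libraries lie below shLuc, and the shIMPA1 libraries differ more than 2-fold from each other. It fell 2.29-fold in shIMPA1 against shLuc (log2 change -1.19, SE 0.27, limma adjusted p = 0.00720). The value was -1.73 without shIMPA1 replicate 1 and -0.65 without shIMPA1 replicate 2, and the call did not hold without shLuc replicate 2 (-1.06, limma adjusted p = 0.0933). It was -0.50 in shIMPDH2 against shLuc (SE 0.27, limma adjusted p = 0.230). With shIMPA1 replicate 1 or 2 left out of the shared estimate of spread, the same -0.50 was called (limma adjusted p = 0.000184 and 0.000122).

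COL21A1, the type XXI chain, had 14.4 and 6.90 normalized reads in shIMPA1, 15.0 and 15.7 in shIMPDH2, and 87.3 and 84.9 in shLuc. It fell 7.90-fold in shIMPA1 (log2 change -2.98, SE 0.36, limma adjusted p = 0.000208) and 5.32-fold in shIMPDH2 (-2.41, SE 0.36, limma adjusted p = 0.00129) against shLuc, and both calls held without any 1 library. This was the largest fall among the members in shIMPA1.

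Of the type IX chains, which form one heterotrimer on cartilage fibrils, limma called COL9A2 alone. Whether the chains differed from each other was not tested. COL9A2 had 23.3 and 21.6 normalized reads in shIMPA1, 26.6 and 19.1 in shIMPDH2, and 77.4 and 68.3 in shLuc. It fell 3.14-fold in shIMPA1 (log2 change -1.65, SE 0.29, limma adjusted p = 0.00174) and 3.13-fold in shIMPDH2 (-1.65, SE 0.29, limma adjusted p = 0.00311) against shLuc, the shIMPDH2 call not holding without shLuc replicate 1 (-1.56, limma adjusted p = 0.0681). Per kb of exon COL9A3 averaged 253 over the 6 libraries and COL9A2 9.34. COL9A3 had 1575 and 1173 normalized reads in shIMPA1, 1168 and 1205 in shIMPDH2, and 1155 and 1066 in shLuc, and was called in no comparison. COL9A1 was -1.22 in shIMPA1 (limma adjusted p = 0.0585, and 0.0389 by edgeR and 0.0454 by DESeq2 on recovered reads) and -0.92 in shIMPDH2 (limma adjusted p = 0.178) against shLuc. In shIMPA1 COL9A1 was -1.50 without shIMPA1 replicate 1, -0.94 without shIMPA1 replicate 2 and -1.22 without either shIMPDH2 library. In shIMPDH2, where its libraries had 19.6 and 63.0 normalized reads, it was -1.74 without shIMPDH2 replicate 2 and -0.11 without shIMPDH2 replicate 1. The fit of only the 2 groups compared called it in shIMPDH2 (-0.92, limma adjusted p = 0.000823). COL19A1 was called in none.

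The type VI chains were the members called in every comparison besides COL12A1, and COL6A2 had calls of opposite direction against shLuc. Type VI collagen is a heterotrimer of COL6A1, COL6A2 and a further chain, and COL6A1 and COL6A2 are neighbours on chromosome 21 in the same orientation, 93046 bases apart. COL6A1 (ENSG00000142156, GRCh38 chromosome 21, 45981737 to 46005050) had 2185 and 1909 normalized reads in shIMPA1, 1308 and 1291 in shIMPDH2, and 878 and 872 in shLuc. COL6A2 (ENSG00000142173, GRCh38 chromosome 21, 46098097 to 46132849) had 212 and 196 in shIMPA1, 35.8 and 24.7 in shIMPDH2, and 72.9 and 69.1 in shLuc. For COL6A1 the order was shIMPA1, then shIMPDH2, then shLuc, and for COL6A2 shIMPDH2 was lowest, with no overlap between groups for either gene.

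COL6A1 rose 2.33-fold in shIMPA1 (log2 change 1.22, SE 0.12, limma adjusted p = 4.92e-05) and 1.49-fold in shIMPDH2 (0.57, SE 0.12, limma adjusted p = 0.00866) against shLuc. COL6A2 rose 2.84-fold in shIMPA1 (1.51, SE 0.23, limma adjusted p = 0.000866) and fell 2.34-fold in shIMPDH2 (-1.23, SE 0.23, limma adjusted p = 0.00491) against shLuc. Directly compared, shIMPDH2 was 1.57-fold lower than shIMPA1 for COL6A1 (-0.65, SE 0.12, limma adjusted p = 0.00291) and 6.65-fold lower for COL6A2 (-2.73, SE 0.23, limma adjusted p = 2.51e-05). The shIMPA1 calls and the direct ones held without any 1 library. The COL6A1 rise in shIMPDH2 lost its call without shLuc replicate 1 (0.58, limma adjusted p = 0.0847), shLuc replicate 2 (0.57, 0.0872), shIMPDH2 replicate 1 (0.56, 0.0910) or shIMPDH2 replicate 2 (0.58, 0.0921). The COL6A2 fall in shIMPDH2 lost its call without shLuc replicate 1 (-1.19, limma adjusted p = 0.0731), shLuc replicate 2 (-1.26, 0.0606) or shIMPDH2 replicate 2 (-0.97, 0.0661). Per kb of exon COL6A1 averaged 383 in shIMPA1, 243 in shIMPDH2 and 164 in shLuc, and COL6A2 37.8, 5.62 and 13.2, so the first chain exceeded the second throughout.

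The upstream sequence of COL6A2 is shown because its level went in opposite directions in the knockdowns. It is on the plus strand (GRCh38.p14, chr21:46097862-46098096) and ends at the last base before the GENCODE start, with GC boxes and a TATA box in capitals.
COL6A2 upstream: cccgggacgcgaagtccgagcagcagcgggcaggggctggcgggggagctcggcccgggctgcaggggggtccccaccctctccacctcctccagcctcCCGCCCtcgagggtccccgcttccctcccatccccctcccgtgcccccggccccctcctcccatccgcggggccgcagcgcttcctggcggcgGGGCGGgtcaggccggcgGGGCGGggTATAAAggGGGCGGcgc

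Of 5 type IV chains of the basement membrane tested, 4 were called lower in shIMPDH2 against shLuc (9.15% of all genes). Each of these calls was lost without either shLuc library, as given below. COL4A5, the most abundant of the chains per kb, was at 0.06 in that comparison. In shIMPA1 against shLuc 1 chain was higher and 1 lower (14% and 16.2% of all genes). COL4A3, COL4A4 and COL4A5 form the network of the glomerular basement membrane, and mutations in them cause Alport syndrome. COL4A3 (ENSG00000169031, GRCh38 chromosome 2, 227164565 to 227314792) had 215 and 142 normalized reads in shIMPA1, 95.9 and 78.7 in shIMPDH2, and 197 and 189.9 in shLuc. COL4A4 (ENSG00000081052, GRCh38 chromosome 2, 227002711 to 227164453) had 56.5 and 19.8 in shIMPA1, 21.9 and 21.4 in shIMPDH2, and 63.0 in each shLuc library. For both genes the shIMPDH2 libraries lie below shLuc, and the shIMPA1 libraries are spread widely.

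COL4A3 fell 2.21-fold in shIMPDH2 against shLuc (log2 change -1.15, SE 0.22, limma adjusted p = 0.00499) and 2.00-fold against shIMPA1 (-1.0, SE 0.22, limma adjusted p = 0.00708). COL4A4 fell 2.82-fold in shIMPDH2 against shLuc (-1.50, SE 0.40, limma adjusted p = 0.0279). In shIMPA1 against shLuc the values were -0.15 for COL4A3 (limma adjusted p = 0.646) and -0.89 for COL4A4 (limma adjusted p = 0.123). The COL4A4 value was -1.62 on leaving out shIMPA1 replicate 1 and -0.15 on leaving out shIMPA1 replicate 2. The COL4A3 call against shLuc was lost on leaving out shLuc replicate 1 (-1.12, limma adjusted p = 0.0767), shLuc replicate 2 (-1.17, 0.0669) or shIMPDH2 replicate 2 (-1.01, 0.0789), and that against shIMPA1 without shIMPDH2 replicate 2 (-0.86, 0.0905). The COL4A4 call did not hold without shLuc replicate 1 (-1.50, limma adjusted p = 0.180), shLuc replicate 2 (-1.50, 0.174), shIMPDH2 replicate 1 (-1.52, 0.133) or shIMPDH2 replicate 2 (-1.48, 0.161).

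COL4A3 and COL4A4 are transcribed away from each other with 111 bases between them, and COL4A5 and COL4A6 on the X chromosome in the same manner with 346 bases between them. The sequence between the first pair is shown whole, on the plus strand, which is the sense strand of COL4A3 (GRCh38.p14, chr2:227164454-227164564). Of the second interval the 250 bases before the RefSeq start of COL4A5 are shown, also on the plus strand (chrX:108439588-108439837). Capitals mark a GC box in the first and a pair of CCAAT boxes, one on each strand, in the second.
COL4A3 to COL4A4: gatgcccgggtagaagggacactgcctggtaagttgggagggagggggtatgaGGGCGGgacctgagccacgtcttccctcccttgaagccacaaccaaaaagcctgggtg
COL4A5 to COL4A6: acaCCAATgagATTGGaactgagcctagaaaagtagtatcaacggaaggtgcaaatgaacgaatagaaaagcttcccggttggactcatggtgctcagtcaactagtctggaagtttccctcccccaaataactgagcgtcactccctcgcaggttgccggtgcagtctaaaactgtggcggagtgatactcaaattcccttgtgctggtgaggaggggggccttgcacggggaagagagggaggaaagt

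COL4A5 (ENSG00000188153, GRCh38 chromosome X, 108439844 to 108697545), the most abundant type IV chain per kb, had 947 and 1099 normalized reads in shIMPA1, 805 and 754 in shIMPDH2, and 779 and 713 in shLuc. It rose 1.37-fold in shIMPA1 against shLuc (log2 change 0.45, SE 0.13, limma adjusted p = 0.0224) and was 1.31-fold lower in shIMPDH2 than in shIMPA1 (-0.39, SE 0.13, limma adjusted p = 0.0465, and 0.0619 by DESeq2 on recovered reads). It was 0.06 in shIMPDH2 against shLuc (limma adjusted p = 0.773). The rise lost its call without shLuc replicate 1 (0.52, limma adjusted p = 0.0827), shLuc replicate 2 (0.39, 0.164), shIMPDH2 replicate 1 (0.45, 0.0529) or shIMPDH2 replicate 2 (0.45, 0.0527). The difference between the knockdowns lost it without either shLuc library (-0.39, limma adjusted p = 0.0833 and 0.0826), shIMPA1 replicate 2 (-0.28, 0.10), shIMPDH2 replicate 1 (-0.44, 0.147) or shIMPDH2 replicate 2 (-0.34, 0.266).

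COL4A6, its neighbour, had 42.2 and 31.9 normalized reads in shIMPA1, 16.2 and 27.0 in shIMPDH2, and 50.4 and 39.4 in shLuc. It fell in shIMPDH2 against shLuc (log2 change -1.06, SE 0.33, limma adjusted p = 0.0477), with the call lost on leaving out shLuc replicate 1 (-0.88, 0.300), shLuc replicate 2 (-1.23, 0.152), shIMPDH2 replicate 1 (-0.70, 0.293) or shIMPDH2 replicate 2 (-1.41, 0.0695), and by edgeR and DESeq2 (adjusted p = 0.0537 and 0.125). COL4A2, a chain of the ubiquitous type IV network, had 7.18 and 9.49 in shIMPA1, 9.24 and 13.5 in shIMPDH2, and 53.1 and 52.5 in shLuc. Both shLuc libraries stand far above the 4 others. COL4A2 fell 5.81-fold in shIMPA1 (log2 change -2.54, SE 0.36, limma adjusted p = 0.000583) and 4.42-fold in shIMPDH2 (-2.14, SE 0.36, limma adjusted p = 0.00267) against shLuc. The shIMPDH2 call did not hold without shLuc replicate 1 (-2.13, limma adjusted p = 0.0548) or 2 (-2.15, 0.0554). Exons of COL4A2 share 95 bases with 2 antisense genes.

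**Figure D5:**
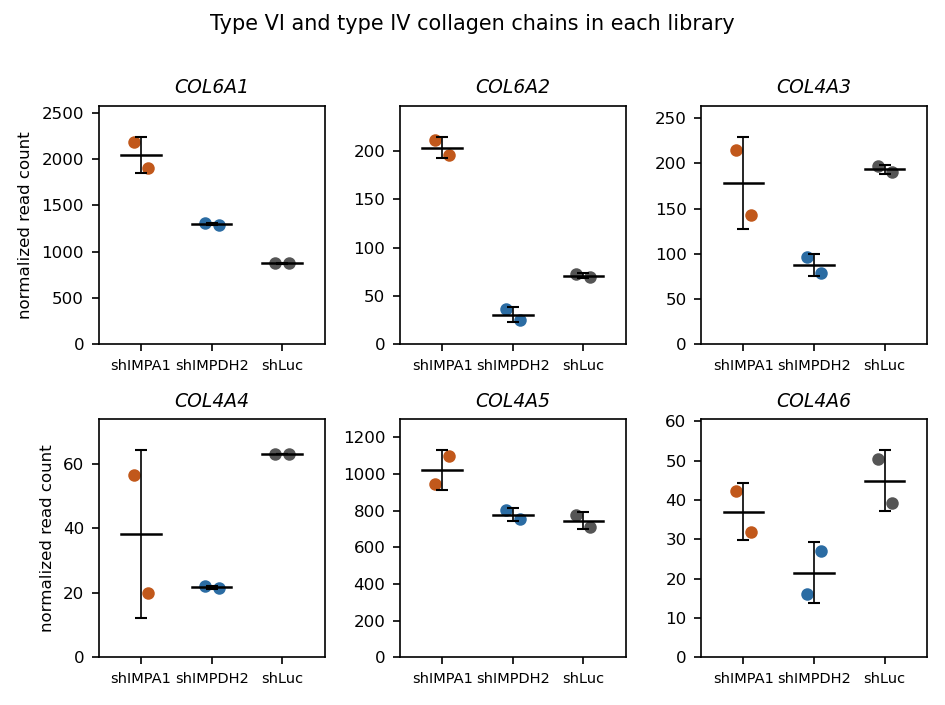
Normalized read counts (y axis, from 0) of the type VI chains COL6A1 and COL6A2 and of 4 type IV chains in each library (points), with group mean and SD (bars, 2 libraries per group). COL6A2 is highest in shIMPA1 and lowest in shIMPDH2, and COL4A3 and COL4A4 are low in both shIMPDH2 libraries.

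The short-chain type VIII collagens, which build the network of Descemet's membrane and of vessel walls, took different courses. COL8A1 fell 3.94-fold in shIMPA1 against shLuc (log2 change -1.98, SE 0.34, limma adjusted p = 0.00166), held without any 1 library, and was higher in shIMPDH2 than in shIMPA1 (1.36, limma adjusted p = 0.0139), with that call lost without shIMPDH2 replicate 1 (1.36, 0.0846) or 2 (1.36, 0.0967). COL8A1 was -0.61 in shIMPDH2 against shLuc (limma adjusted p = 0.243). COL8A2 was lower in shIMPDH2 than in shIMPA1 (-1.15, SE 0.35, limma adjusted p = 0.0338, and 0.147 by DESeq2 on recovered reads). This call did not hold without shLuc replicate 1 (-1.15) or 2 (-1.15) and without shIMPDH2 replicate 1 (-0.89) or 2 (-1.40).

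Of the 3 transmembrane collagens, 2 were lower in shIMPDH2 against shLuc and against shIMPA1, and none was called in shIMPA1 against shLuc (0 also had an unadjusted p under 0.05, and 0 were called by edgeR or DESeq2). Of all genes 9.15% were lower in shIMPDH2 against shLuc and 12.6% against shIMPA1. In shIMPA1 against shLuc 30.2% of all genes were called, and with 3 chains a count of 0 cannot be told apart from that share. COL25A1, a neuronal membrane collagen whose ectodomain is found in amyloid plaques, had 97.8 and 75.1 normalized reads in shIMPA1, 38.1 and 32.6 in shIMPDH2, and 58.5 and 68.3 in shLuc. It fell 2.39-fold in shIMPDH2 against shIMPA1 (log2 change -1.26, SE 0.24, limma adjusted p = 0.00393) and 1.77-fold against shLuc (-0.82, SE 0.24, limma adjusted p = 0.0400, and 0.0509 by edgeR and 0.109 by DESeq2 on recovered reads). The call against shLuc was lost on leaving out shLuc replicate 1 (-0.93, limma adjusted p = 0.149), shLuc replicate 2 (-0.71, 0.248), shIMPDH2 replicate 1 (-0.93, 0.115) or shIMPDH2 replicate 2 (-0.71, 0.237), and that against shIMPA1 without shIMPDH2 replicate 2 (-1.15, 0.0518). COL13A1, which acts at neuromuscular junctions, fell in shIMPDH2 against shLuc (-1.97, SE 0.42, limma adjusted p = 0.00994) and against shIMPA1 (-1.69, limma adjusted p = 0.0145, and 0.0684 by DESeq2 on recovered reads). Its first call did not hold without shLuc replicate 1 (-2.06, limma adjusted p = 0.0873), shLuc replicate 2 (-1.88, 0.112) or shIMPDH2 replicate 2 (-1.54, 0.0889), and its second without shIMPDH2 replicate 2 (-1.26, 0.113).

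COL26A1 (ENSG00000160963, GRCh38 chromosome 7, 101362820 to 101559024) had 56.5 and 75.1 normalized reads in shIMPA1, 4.62 and 7.87 in shIMPDH2, and 6.30 and 5.25 in shLuc. It passed the filter through shIMPA1 alone, so that some difference was bound to appear. The fold was 9.79 in shIMPA1 against shLuc (log2 change 3.29, SE 0.41, limma adjusted p = 0.000232) and the log2 fold change -3.23 in shIMPDH2 against shIMPA1 (SE 0.41, limma adjusted p = 0.000295). COL7A1, which forms the anchoring fibrils beneath epithelia, ranged from 1209 to 1833 over the 6 libraries and was called in no comparison, with 0.36 in shIMPA1 against shLuc (SE 0.13, limma adjusted p = 0.0605). Without shIMPA1 replicate 2 that value was 0.45. COL18A1, the source of endostatin, COL17A1 of hemidesmosomes, and COL28A1 had no call either.

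Upstream windows of 250 bases were available for 27 of the 37 members, 40 windows in all because some genes have several starts. Motifs were matched on both strands with no overlap between the 5 motifs in the sequences shown. TATAAA, the TATA box, was in 12.5% of the members' windows and 10.7% of all 35116 windows of that length. CCAAT was in 20% against 32%, and GGGCGG, the GC box, in 50% against 42.6%. TGANTCA, the AP-1 motif, was in 0% against 6.57%, and GGAATG, the TEAD motif, in 7.5% against 11.9%. The median GC content was 64.4% in the members' windows and 58% in all windows. Windows of one gene are not independent, and a match is a run of letters and not a measured binding site.

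Of the genes that modify and fold collagen chains, 31.25% were called in shIMPA1 against shLuc and 31.25% in shIMPDH2 against shIMPA1. The share was 0% in shIMPDH2 against shLuc. Of 16 tested, 0 were higher and 5 lower in shIMPA1 against shLuc (median log2 fold change -0.20), where 30.2% of all genes were called and 16.2% were lower. In shIMPDH2 against shIMPA1 5 were higher and 0 lower (median 0.27), where 26.1% of all genes were called and 13.5% were higher. In shIMPDH2 against shLuc 0 were called by limma, edgeR or DESeq2, against 17% of all genes by limma, and 2 had an unadjusted p under 0.05. In shIMPA1 against shLuc P3H3, a component of the collagen lysyl hydroxylation complex, fell by 0.75 on the log2 scale (limma adjusted p = 0.00771), the lysyl hydroxylases PLOD2 and PLOD1 by 0.58 (0.00777) and 0.51 (0.0148), and the prolyl hydroxylase subunit P4HA3 by 1.82 (0.00933). In shIMPDH2 against shIMPA1 PLOD1 was higher by 0.68 (limma adjusted p = 0.00415), P3H3 by 0.81 (0.00600), the collagen chaperone SERPINH1 by 0.61 (0.00795) and the prolyl 3-hydroxylation partner CRTAP by 0.48 (0.0246). Without shLuc replicate 1 the calls of P3H3 (-0.66, limma adjusted p = 0.0929), PLOD2 (-0.58, 0.0688), PLOD1 (-0.54, 0.0834) and P4HA3 (-1.42, 0.127) were lost in shIMPA1, as were those of PLOD2 (-0.58, 0.0685) and PLOD1 (-0.48, 0.111) without shLuc replicate 2. Without shIMPDH2 replicate 2 those of PLOD1 (0.64, limma adjusted p = 0.0673), P3H3 (0.74, 0.0843), SERPINH1 (0.48, 0.123) and CRTAP (0.48, 0.159) were lost between the knockdowns, and that of CRTAP also without shIMPDH2 replicate 1 (0.49, 0.132).

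Of 7 genes of procollagen export from the endoplasmic reticulum, 3 were higher and 0 lower in shIMPA1 and 2 were higher and 0 lower in shIMPDH2, each against shLuc. Of all genes 14% were higher in shIMPA1 and 7.86% in shIMPDH2. MIA2, a cargo receptor partner at exit sites, had 967 and 1079 normalized reads in shIMPA1, 321 and 370.0 in shIMPDH2, and 269 and 309 in shLuc. It rose by 1.82 in shIMPA1 against shLuc on the log2 scale (limma adjusted p = 1.26e-05) and was -1.56 in shIMPDH2 against shIMPA1 (limma adjusted p = 4.38e-05), both held without any 1 library. SEC24D, a coat protein of the carriers, rose by 0.79 in shIMPA1 (limma adjusted p = 0.00109) and 0.41 in shIMPDH2 (0.0469) against shLuc and was -0.38 between the knockdowns (0.0448). TRAPPC2 rose by 0.48 in shIMPA1 (limma adjusted p = 0.0277), and the cargo receptor MIA3 by 0.65 in shIMPDH2 against shLuc (0.00532) and 0.44 against shIMPA1 (0.0242). Without shLuc replicate 1 the calls of TRAPPC2 (0.48, limma adjusted p = 0.142), MIA3 against shLuc (0.54, 0.0898) and SEC24D in shIMPDH2 (0.36, 0.270) were lost, and without shLuc replicate 2 those of TRAPPC2 (0.48, 0.138) and SEC24D in shIMPDH2 (0.46, 0.158). Without shIMPDH2 replicate 1 those of MIA3 (0.62 against shLuc, limma adjusted p = 0.0773, and 0.41 against shIMPA1, 0.164) and SEC24D (0.35 against shLuc, 0.281, and -0.45 against shIMPA1, 0.129) were lost. Without shIMPDH2 replicate 2 they were lost as well (MIA3 0.68, limma adjusted p = 0.0622, and 0.47, 0.130, SEC24D 0.47, 0.168, and -0.32, 0.28), and SEC24D between the knockdowns also without shLuc replicate 1 or 2 (-0.38, 0.0809 and 0.0811) or shIMPA1 replicate 2 (-0.30, 0.0770).

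Of 6 procollagen processing genes tested, 3 were lower and 0 higher in each knockdown against shLuc. Of all genes 16.2% were lower in shIMPA1 and 9.15% in shIMPDH2. The enhancer PCOLCE of the C-proteinase fell by 0.76 in shIMPA1 (limma adjusted p = 0.00716) and 0.70 in shIMPDH2 (0.0181) on the log2 scale, and the proteinase TLL1 by 0.70 in shIMPA1 (0.0465) and 0.89 in shIMPDH2 (0.0280). PCOLCE2 fell by 0.98 in shIMPA1 against shLuc (limma adjusted p = 0.000974) and was 0.63 higher in shIMPDH2 than in shIMPA1 (0.0120), and the C-proteinase BMP1 fell by 0.46 in shIMPDH2 (0.0350). The calls of PCOLCE were lost on leaving out shLuc replicate 1 (-0.78 in shIMPA1, limma adjusted p = 0.0644, and -0.72 in shIMPDH2, 0.134) or 2 (-0.75, 0.0743, and -0.69, 0.144), and in shIMPDH2 also without shIMPDH2 replicate 1 (-0.74, 0.102) or 2 (-0.66, 0.155). BMP1 lost its call without shLuc replicate 1 (-0.44, limma adjusted p = 0.209) or 2 (-0.48, 0.167) or shIMPDH2 replicate 1 (-0.47, 0.168) or 2 (-0.45, 0.212), and PCOLCE2 its call between the knockdowns without shIMPDH2 replicate 1 (0.73, 0.0503) or 2 (0.53, 0.140). TLL1 lost its call in shIMPA1 without shLuc replicate 1 (-0.93, limma adjusted p = 0.0788) or 2 (-0.47, 0.335), shIMPA1 replicate 2 (-0.54, 0.0720), shIMPDH2 replicate 1 (-0.70, 0.0703) or 2 (-0.70, 0.0685). In shIMPDH2 TLL1 lost it without shLuc replicate 1 (-1.11, limma adjusted p = 0.0796) or 2 (-0.66, 0.256), shIMPDH2 replicate 1 (-1.05, 0.0812) or 2 (-0.72, 0.228).

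Among 7 tested collagen receptors, 2 were lower in shIMPA1, and 1 was higher and 2 were lower in shIMPDH2, each against shLuc. Called genes made up 30.2% of the whole table in shIMPA1 and 17% in shIMPDH2, so that the receptors' count in shIMPA1 lay near that of all genes. The endocytic collagen receptor MRC2 had 144 and 112 normalized reads in shIMPA1, 121 and 143 in shIMPDH2, and 382 and 358 in shLuc. It fell by 1.53 in shIMPA1 (limma adjusted p = 0.00017) and 1.48 in shIMPDH2 (0.000372) on the log2 scale, with both calls held without any 1 library. The collagen-binding integrin ITGA1 fell by 0.93 in shIMPA1 (limma adjusted p = 0.00556) and 1.09 in shIMPDH2 (0.00421) against shLuc. The receptor kinase DDR1 rose by 0.48 in shIMPDH2 against shLuc (limma adjusted p = 0.0234) and 0.39 against shIMPA1 (0.0395). ITGA1 lost its calls without shLuc replicate 2 (-0.82 in shIMPA1, limma adjusted p = 0.0827, and -0.97 in shIMPDH2, 0.0836), and in shIMPDH2 also without shIMPDH2 replicate 1 (-1.08, 0.0531) or 2 (-1.09, 0.0562). DDR1 lost its call against shLuc without shLuc replicate 1 (0.40, limma adjusted p = 0.199) or 2 (0.57, 0.0822) or shIMPDH2 replicate 1 (0.47, 0.154) or 2 (0.49, 0.161), and against shIMPA1 without shLuc replicate 1 (0.39, 0.0622) or 2 (0.39, 0.0624), shIMPA1 replicate 2 (0.30, 0.0908), shIMPDH2 replicate 1 (0.39, 0.187) or 2 (0.40, 0.191).

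Of 7 collagen-degrading enzymes on the list, MMP9, MMP14 and CTSK were tested, and 0 were called in any comparison by limma, edgeR or DESeq2. In shIMPDH2 against shLuc 1 of these 3 had an unadjusted p under 0.05, and 0 did in the other comparisons. Of all genes, limma called 30.2% in shIMPA1 and 17% in shIMPDH2, each against shLuc, and 26.1% in shIMPDH2 against shIMPA1. With 3 genes tested, a count of 0 cannot be told apart from these shares.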

How the data were processed

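Poly(A) RNA sequencing of 6 libraries was used. The submitters' processing notes name Trimmomatic 0.36 for trimming, STAR 2.5.2b for alignment, Subread 1.5.2 with featureCounts for counting, and the build GRCh38, and per the labels' protocols unique reads in exons were counted per gene. No source used here gives the annotation release or the use of strand, so reads of overlapping and antisense genes cannot be told apart. The deposited values are a signal: read counts scaled by the authors with a size factor for each library. Expressed in units of 1 read they were whole, within 0.05 reads, for 99.98% to 100% of the genes. The deposited log2 fold change, p-value and adjusted p-value columns of the authors, for a comparison the header does not name, entered no test.

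Symbols were found for 16275 genes in a table of gene names and for 1475 in GENCODE release 29, and 61 had none. Values of at least 10 in at least 2 libraries left 17742 genes and removed 69. limma 3.58.1 in R 4.3.3 was fitted to log2(value + 1) of all 6 libraries, with a mean-variance trend, 1 coefficient per group and 3 residual degrees of freedom. A Benjamini-Hochberg adjusted p over all genes under 0.05 was called, and SE is the moderated standard error. Fold changes on this scale understate changes of genes with few reads. A count test was planned had the file held raw counts. The test was tried on simulated data. Alternatives were other pseudocounts and filters, no trend, only the 2 groups compared, TMM scaling, edgeR 4.0.16 and DESeq2 1.42.0 on the recovered reads, a replicate block, and each library left out in turn. The shift under TMM was at most 0.0113 (log2) in any library.

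Levels per kb divide by the union of GENCODE exons. Upstream sequences are from RefSeq (GRCh38.p14). Per-library values were to be given for LUM, the lysyl oxidases and each called collagen with a mean of at least 50, with fold changes alone for called collagens below it, up to 4 genes per pathway list and comparison, and the 5 genes most like LUM. Per-library values of COL4A2, COL4A4, COL4A6, COL9A2, COL9A3, COL21A1, COL26A1 and of pathway genes were added after their values were seen. The members and lists were chosen with earlier results of these data known.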

Additional observations from a re-analysis of the deposited data

Results flagged for a closer look

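COL6A2 responded in opposite directions in the knockdowns. It was higher than shLuc in both shIMPA1 libraries and lower than shLuc in both shIMPDH2 libraries. The difference of the effects, shIMPDH2 minus shIMPA1, was -2.73 on the log2 scale (SE 0.23, limma adjusted p = 2.51e-05). The fall in shIMPDH2 against shLuc lost its call without shLuc replicate 1 (-1.19), shLuc replicate 2 (-1.26) or shIMPDH2 replicate 2 (-0.97).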

How the results depend on the processing

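Of the 49 calls among the members over the 3 comparisons, 22 were kept under every alternative run and 0 changed direction. The pseudocounts of 5 and 0.5 and the removal of the filter lost 0 of them, the filter of 50 and TMM scaling 1 each, edgeR 2, DESeq2 6, the fit of only the 2 groups compared 6 and the fit without a trend 9. Leaving out a library lost between 1 (shIMPA1 replicate 1) and 21 (shIMPDH2 replicate 2). The cause was not tested. Without a trend 3508, 1727 and 2909 genes were called in shIMPA1 against shLuc, shIMPDH2 against shLuc and shIMPDH2 against shIMPA1, and with only the 2 groups compared 6382 were called in shIMPDH2 against shLuc. With 1 library left out, 2147 to 7940, 773 to 6386 and 1430 to 7052 genes and 11 to 22, 5 to 23 and 6 to 20 members were called, in the same order. Of the 62 uncalled member differences, 21 changed sign with 1 library left out, and of these COL17A1 between the knockdowns did so also under edgeR and DESeq2. Those whose values are given above were COL4A3 (-0.44 to 0.15 in shIMPA1 against shLuc), COL5A2 (-0.0164 to 0.21 between the knockdowns), LOXL1 (-0.1041 to 0.0037 in shIMPA1 against shLuc, -0.0496 to 0.0583 between the knockdowns), LOX (-0.3841 to 0.5747 between the knockdowns) and COL26A1 (-0.2652 to 0.3934 in shIMPDH2 against shLuc). IMPDH2, which is no member, changed sign in shIMPA1 against shLuc (-0.0880 to 0.149). COL26A1 was not tested without either shIMPA1 library, where it fails the filter. Its calls are among the 22 kept, although they were not tried in those fits. A lone library left in a group was taken to vary like the other groups.

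Libraries of different groups share only a replicate number. Deviations from the group means of same-numbered libraries had correlations of 0.0418 (shIMPA1 and shLuc), -0.0488 (shIMPDH2 and shLuc) and 0.000266 (shIMPDH2 and shIMPA1), so the numbers were not treated as pairs. With the replicate block, 17, 16 and 17 members and 5298, 2939 and 4537 genes were called in the 3 comparisons. Under the block COL4A6 in shIMPDH2 against shLuc (adjusted p = 0.0512) and COL4A5 between the knockdowns (adjusted p = 0.0621) lost their limma calls, and LUM between the knockdowns (adjusted p = 0.0256) and COL9A1 in shIMPA1 against shLuc (adjusted p = 0.0434) gained one.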
